A study of Mus musculus with 12 samples.

Results

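The 380 regions described here are the 1-Mb windows of the mouse autosomes in which Tdg knockout embryonic stem cells had 120 or more listed 5-formylcytosine (5fC) sites. The autosomes were cut at multiples of 1000000 bases, which gave 2423 windows between each chromosome's first and last listed sites, and 2043 of them had fewer than 120 knockout sites. The 380 windows are called rich windows below and the 2043 are called other windows. The number of knockout sites chose the rich windows, so that number and all else measured in the knockout list is a description of them. The control list was not used in the choice, but it is not independent of it. Of the 16258 control sites in rich windows, 6972 stood on a base also in the knockout list and so counted towards the threshold. Control density without these shared bases was not computed.

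5fC is an intermediate of active DNA demethylation. TET enzymes oxidise 5-methylcytosine stepwise to 5-hydroxymethylcytosine, 5fC and 5-carboxylcytosine, and the glycosylase TDG cuts out 5fC and 5-carboxylcytosine so that base excision repair can restore an unmodified cytosine. In embryonic stem cells without TDG, 5fC is known to build up, in particular at distal regulatory elements. Most 5fC lies in CpG dinucleotides, where the cytosines of both strands stand on adjacent base positions.

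The cells were mouse embryonic stem cells of genotype Tdg -/- (knockout) or Tdg fl/fl (control, with floxed alleles that still give TDG), strain C57BL/6-ICR, grown without feeder cells in serum and LIF. The labels name 1 mES line per genotype and do not say whether a line is 1 clone. In fC-CET, azido-indandione reacts with 5fC, a biotin is attached by click chemistry, the labelled fragments are pulled down on streptavidin beads, and the labelled base is read as T. There were 12 libraries, 2 biological replicates per genotype of DNA before labelling, DNA after labelling, and pull-down product.

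The values used are 1 deposited list of 5fC base positions per genotype, on the mouse build mm9, with 138649 autosomal sites in knockout cells and 32614 in control cells. A row holds a position only, with no level, read depth, strand or replicate. There is thus no replicate check of any difference between genotypes, and no p-value is given. The 95% intervals are exact (Clopper-Pearson for shares, conditional for ratios), with normal or log-normal ones for differences and ratios of them. They cover counting error only, and because sites lie in clusters they are too narrow for statements beyond these lists. Those of adjacent-base shares within a list are narrower still, because both sites of a pair are counted as if separate. No annotation on mm9 was used, so the windows are given by position and were not tied to genes.

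Rich windows were 15.7% of the autosomal windows and held 69675 of the knockout sites, which is 50.3% of the autosomal list. They also held 16258 control sites, 49.8% (49.3 to 50.4) of that list. A rich window had a median of 167 knockout sites, with quartiles of 137 and 212.25 and a highest value of 407. The median of the other windows was 21, and 129 windows had none. The threshold of 120 met no gap in the values: 131 windows held at least 100 but fewer than 120 knockout sites, and 103 held 120 to 139. Of the 9 windows with exactly 120, the first 5, on chromosomes 3, 4, 4, 4 and 7, had 31, 25, 22, 23 and 30 control sites. The 4 windows that missed it by 1 site, on chromosomes 1, 5, 10 and 13, had 25, 34, 28 and 27 control sites, and one on chromosome 2 with 118 knockout sites had 32.

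The richest window, 117000000 to 117999999 of chromosome 11, counted 407 knockout sites, 98 control sites and 41 bases listed in both. The next, 140000000 to 140999999 of chromosome 4, counted 401, 98 and 40. Chromosome 17 held 3 of the 10 richest windows side by side, 27000000 to 29999999, holding 371, 359 and 375 knockout sites and 87, 79 and 91 control sites. Chromosome 11 held 3 of them: besides the richest, the window from 116000000 had 363 knockout and 91 control sites, and that from 88000000 had 352 and 103, the most control sites of any rich window. The last 3 were on chromosome 5 from 115000000 (353 knockout and 94 control sites), chromosome 4 from 148000000 (345 and 86) and chromosome 15 from 100000000 (343 and 78). Each of these 10 windows thus had at least 78 control sites, against a median of 40 over all rich windows.

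Every autosome had rich windows, but in unequal number. Chromosome 11 had the most, 35 (29.4% of its windows), followed by chromosome 5 with 33, chromosome 4 with 32, chromosome 10 with 25, chromosome 9 with 24 and chromosome 8 with 23. Chromosomes 2 and 6 had 22 each, chromosomes 1 and 7 had 20 each, chromosomes 15 and 17 had 19 each, and chromosome 12 had 16. Chromosomes 13 and 19 had 15 each, chromosomes 3 and 16 had 13 each, chromosome 18 had 8 and chromosome 14 had 6. In relation to length, chromosome 14 was again the lowest, with 4.88% of its windows, and chromosome 19 was second to chromosome 11 with 25.4%. Over the autosomes the share of rich windows was 16.2% ± 6.21 (SD, n = 19 autosomes). Rich windows held 65.5% of the knockout sites of chromosome 11 and 65.4% of those of chromosome 4, against 21.8% on chromosome 14.

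Rich windows were more frequent towards the far end of the chromosomes. Coordinates of mouse autosomes start at the centromere, and in the 50% of windows nearest to it 125 of 1206 windows (10.4%) were rich, against 255 of 1217 (21.0%) in the other 50%. With each chromosome cut into 10 equal parts, 6.17% of windows were rich in part 1 and 32.1% in part 10. The control list was not used in the choice, though it shares bases with the knockout list. It had 8.40 sites per window in part 1 and 22.2 in part 10. Parts 2 to 8 had 9.74 to 15.4 control sites per window and part 9 had 20.1. The knockout-to-control ratio was 4.33 in part 1 and 4.26 in part 10. The start of chromosome 6 lies in part 1, and its 5-Mb segments from 0 and 5000000 had ratios of 10.8 and 9.49. A value of part 1 without them was not computed. Part 1 was not empty on every chromosome: chromosomes 6 and 11 had 3 rich windows each there and chromosome 19 had 4, although chromosome 19 had only 1 in part 10. On chromosome 14 the nearest rich window began 52 Mb after the first window with a site, and on chromosome 5 it began 61 Mb after it.

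**Figure D1:**
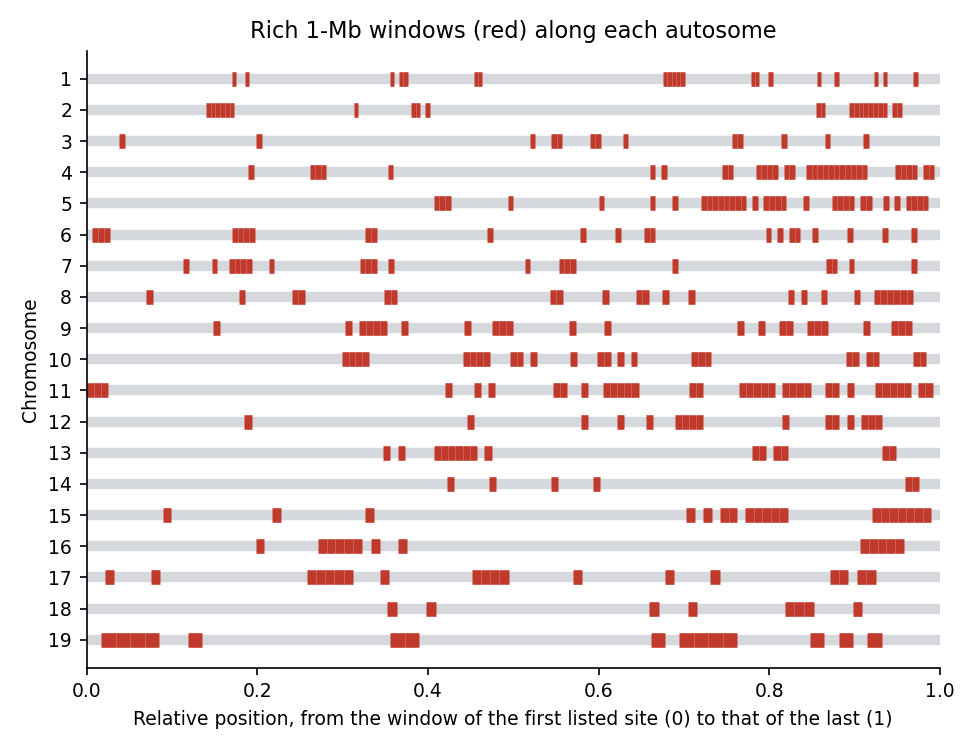
Position of the 380 rich windows (red) on each autosome (vertical axis, chromosome number), with the horizontal axis running from the window of the first listed site (0) to that of the last (1). Red blocks thicken to the right, where 32.1% of windows in the last of 10 equal parts were rich against 6.17% in the first.

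Rich windows formed 194 separate stretches. Of the 380 windows, 268 (70.5%) stood in 82 runs of 2 or more consecutive windows and 112 stood alone. There were 15 runs of 5 or more windows, which together held 92 windows. The longest run covered 11 Mb of chromosome 4, 132000000 to 142999999, and totalled 3032 knockout and 700 control sites. Its windows held, in order, 305, 268, 287, 290, 204, 312, 204, 282, 401, 329 and 150 knockout sites and 75, 63, 58, 49, 54, 70, 59, 67, 98, 80 and 27 control sites. The last window was the lowest of this run in both lists, and the other 10 all held more than 200 knockout sites. The next run by sites covered 8 Mb of chromosome 5, 111000000 to 118999999, and totalled 1831 and 453, with a peak of 353 and 94 in the window from 115000000. A run of 8 windows on chromosome 2, 163000000 to 170999999, totalled 1785 and 440, with 121 knockout sites in the window from 163000000 and 306 in that from 167000000. The knockout-to-control ratios of the 3 runs were 4.33 (3.99 to 4.71), 4.04 (3.64 to 4.49) and 4.06 (3.65 to 4.51), intervals that overlap one another. Windows in runs had a ratio of 4.33 (4.25 to 4.42) and windows that stood alone 4.15 (4.01 to 4.29), and their same-base shares were 42.8% (41.9 to 43.7) and 43.2% (41.7 to 44.7) of control sites.

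The borders of the stretches were compared next, over 387 borders between a rich window and another window of the same chromosome. The window outside had fewer control sites than the rich one at 376 borders, the same number at 1 and more at 10. Control density fell from 3.39 sites in the 100 kb just inside the border to 2.32 in the 100 kb just outside it and to 1.09 at 500 to 600 kb outside. Knockout density fell from 14.2 to 9.82 and to 4.52 over the same steps. The knockout count set which windows lie inside, so its own fall is part of the choice. The control list was not used in it, but bases in both lists carry part of that choice into the control fall. Windows next to a rich window averaged 58.1 knockout and 13.7 control sites, and other windows farther off 28.7 and 6.83. The ratios of these neighbours and farther windows were 4.24 (4.11 to 4.38) and 4.21 (4.12 to 4.29).

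**Figure D2:**
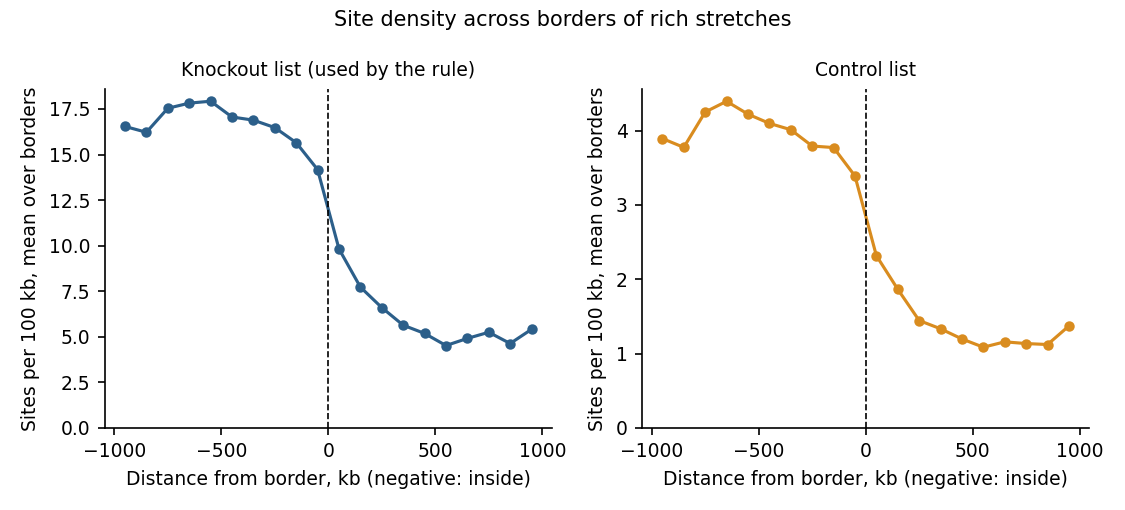
Mean number of sites per 100 kb (vertical axis) by distance in kb from the border of a rich stretch (horizontal axis, negative inside), over 387 borders, for the knockout list on the left and the control list on the right. Both fall across the border, the control list from 3.39 to 2.32 sites per 100 kb.

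The control list was then compared between rich and other windows. Every rich window had control sites, from 12 to 103 with a median of 40, and the other windows had 0 to 42 with a median of 5, so the groups overlapped. A rich window had 42.8 control sites on average and another window 8.01, a ratio of 5.34 (5.23 to 5.46). The number was higher in rich windows on 19 of 19 autosomes, by 4.16-fold on chromosome 8 to 6.68-fold on chromosome 4. In rich windows 42.9% of control sites stood on bases that also counted towards the threshold, so part of this excess follows from the choice. Of the rich windows, 316 held 30 or more control sites, against 15.1% of all windows, and these 316 made up 86.3% of all windows with 30 or more. When the same number of windows was chosen by control sites instead, 324 of the 380 (85.3% of each list) were rich windows. The 56 rich windows outside that choice had between 120 and 254 knockout sites.

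**Figure D3:**
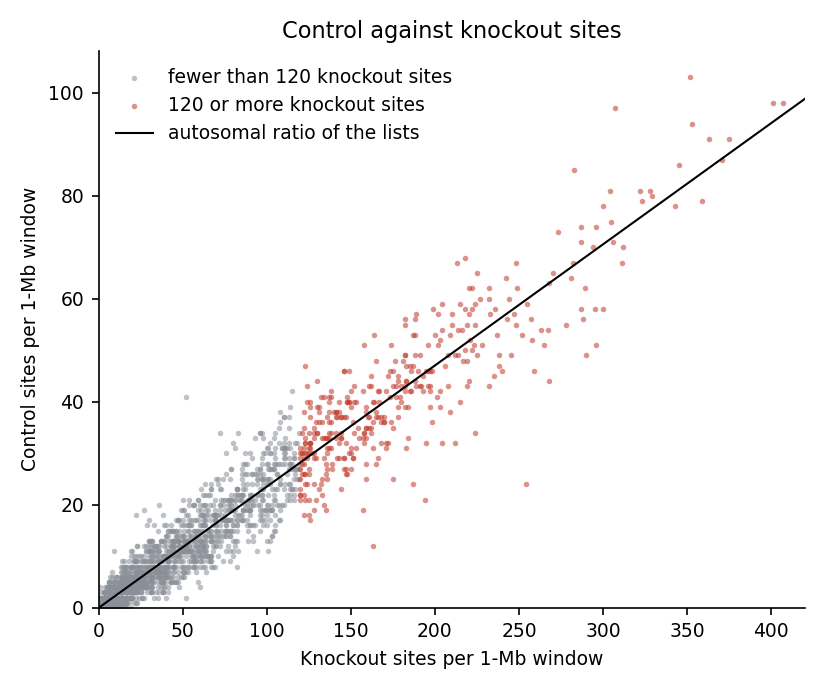
Control sites (vertical axis) against knockout sites (horizontal axis) in each of the 2423 autosomal windows of 1 Mb, with rich windows in red and the autosomal ratio of 4.25 as a line. Rich windows spread along the line from 120 to 407 knockout sites, and a few lie far below it.

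Rich windows differed from other windows more in the number of places with 5fC than in the number of sites per place. Knockout sites of a window no more than 1 kb apart were joined into regions, which gave 73.4 regions per rich window and 15.6 per other window, a ratio of 4.69. A region held 2.50 knockout sites in rich and 2.16 in other windows, a ratio of 1.16. In rich windows 35.1% (34.6 to 35.7) of regions were single sites and 11.2% (10.9 to 11.6) had 5 or more sites, and in other windows 41.2% (40.7 to 41.8) and 6.82% (6.55 to 7.10). The control list gave 31.8 regions per rich window and 6.17 per other window, a ratio of 5.16, with 1.34 and 1.30 control sites per region. Of control sites, 44.9% (44.2 to 45.7) had another control site within 1 kb in rich windows and 40.7% (39.99 to 41.5) in other windows. This difference of 4.19 percentage points (3.12 to 5.26) lies in a list that did not choose the windows. That list shares bases with the knockout list, and a higher density by itself brings sites closer together.

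Sites were spread through a rich window and not heaped in 1 place. A rich window had knockout sites in a median of 48 of its 100 bins of 10 kb, from 24 to 84. Its densest bin held a median of 7.28% of its knockout sites, from 3.68% to 16.3%. In the most uneven window, 56000000 to 56999999 of chromosome 12, the densest bin held 20 of 123 knockout sites and 8 of 24 control sites (56580000 to 56589999). Next were chromosome 3 from 84000000 and chromosome 11 from 3000000, each with 18 of 123 knockout sites (14.6%) in a single bin that held 1 control site. The most even windows were chromosome 5 from 115000000, with 3.68% in its densest bin, chromosome 11 from 117000000 (3.69%) and chromosome 17 from 29000000 (3.73%), all among the 10 richest. More sites in a window by themselves lower the share of its densest bin, so this order follows in part from the count.

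The excess of knockout over control sites was nearly the same in rich and other windows. The knockout-to-control ratio was 4.29 (4.21 to 4.36) in rich and 4.22 (4.15 to 4.29) in other windows, and the ratio of these ratios, 1.016 (0.992 to 1.04), had an interval that includes 1. It was above 1 on 12 autosomes and below 1 on 7. Choosing windows by knockout sites favours a high ratio, and choosing the same number by control sites gave the opposite: 4.05 inside and 4.46 outside the chosen windows. Over 8 bands of windows, from 1 to 19 knockout sites up to 160 or more, the ratio lay between 4.09 and 4.32, while control sites per window rose from 1.84 to 51.2.

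The share of control sites that stood on a base also listed in knockout cells was 42.9% (42.1 to 43.6) in rich and 41.7% (40.9 to 42.4) in other windows. The difference of 1.20 percentage points had an interval of 0.132 to 2.28, and rich windows had the higher share on 15 of 19 autosomes, with differences from -1.74 points on chromosome 18 to 4.50 points on chromosome 17. The means over autosomes were 42.8% ± 2.63 and 41.5% ± 1.59 (SD, n = 19 autosomes), a gap smaller than the spread between chromosomes. Those SDs do not measure the spread of the differences within autosomes, which had a median of 1.15 points. The share also depends on the knockout list, and with the same number of windows chosen by control sites the difference was 0.382 points (-0.690 to 1.45), an interval that includes 0. It was 2.21 points (1.13 to 3.28) with windows shifted by 500 kb and 2.49 points (1.36 to 3.62) without the densest 10 kb of each window. That densest 10 kb held a median of 7.28% of knockout sites in rich and 21.4% in other windows, so the removal was unequal. Within the rich windows, those with 160 or more knockout sites had 43.4% (42.5 to 44.4) and those with fewer had 41.7% (40.4 to 43.1), a difference of 1.70 points (0.09 to 3.31). Windows with at least 100 but fewer than 120 had 42.0% (40.3 to 43.7). Rich windows were chosen for many knockout sites, which by itself puts more control sites near one. A knockout site within 1 kb was found for 91.9% (91.5 to 92.3) of control sites in rich windows and 89.0% (88.5 to 89.5) in other windows. The share of control sites with a knockout site on the adjacent base was 19.1% (18.5 to 19.7) and 19.2% (18.6 to 19.8), and the difference of -0.12 points had an interval of -0.98 to 0.73.

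Adjacent-base pairs, which both strands of a CpG can give, differed little between rich and other windows. Of knockout sites, 19.6% (19.3 to 19.9) had another knockout site exactly 1 base away in rich windows and 19.4% (19.1 to 19.7) in other windows, a difference of 0.16 points (-0.25 to 0.58). That interval includes 0, but the difference was 0.467 points (0.034 to 0.900) with a threshold of 150 knockout sites. It was 0.743 points (0.306 to 1.18) without the densest 10 kb of each window, which takes unequal shares from rich and other windows. Both sites of a pair are counted, so these intervals are too narrow, and intervals by pairs were not computed. Of control sites, 5.06% (4.72 to 5.40) had an adjacent control site in rich windows and 5.51% (5.17 to 5.88) in other windows, a difference of -0.46 points (-0.94 to 0.03). The signs over autosomes were mixed for both lists, with rich windows higher on 10 of 19 autosomes in knockout and on 8 of 19 in control cells. The lowest share in knockout cells, 17.4% (16.5 to 18.3), was that of windows with 1 to 19 knockout sites. An adjacent control pair was present in 246 of the 380 rich windows, 357 of the 2043 other windows and 603 of all 2423. Rich windows hold more control sites, which by itself makes a pair in a window more likely.

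**Figure D4:**
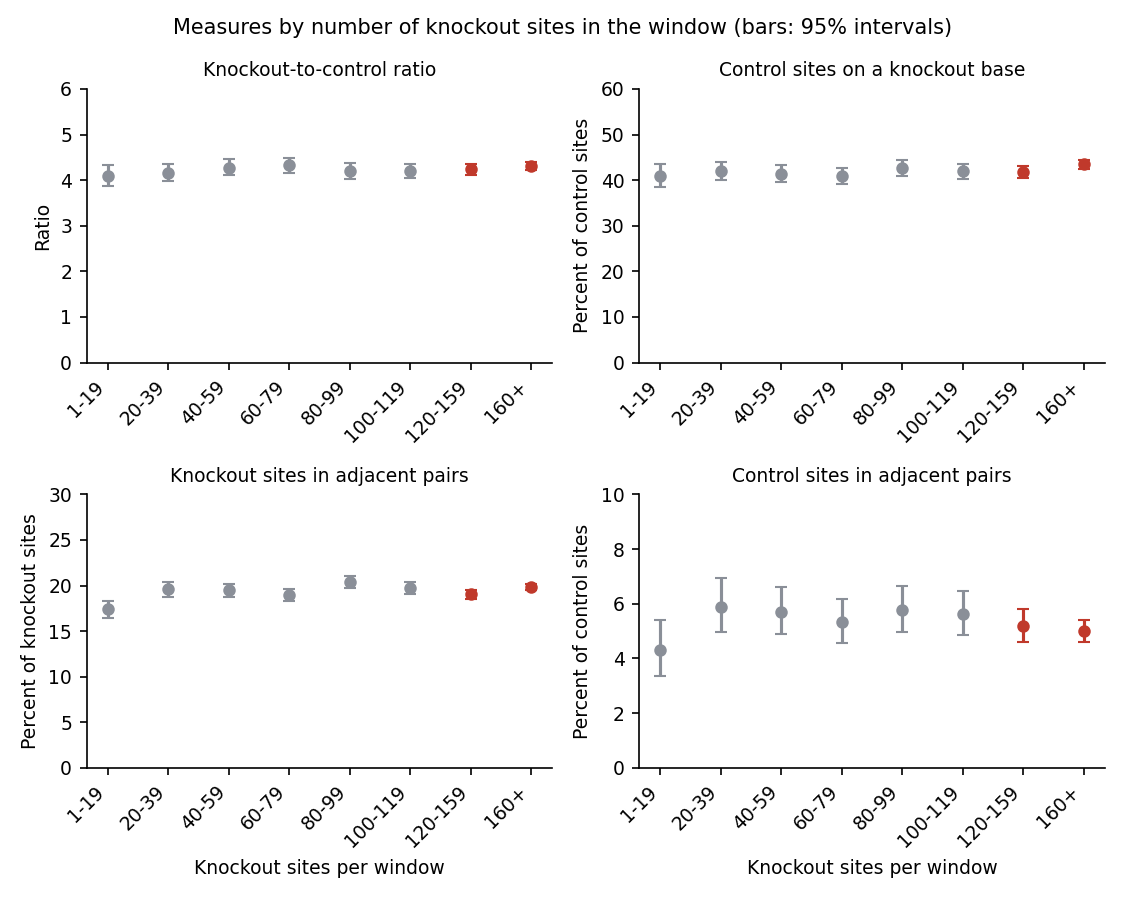
Windows grouped by number of knockout sites (horizontal axes), with rich windows in red and bars for 95% intervals. The panels show the knockout-to-control ratio, the percent of control sites on a base listed in knockout cells, and the percent of knockout and of control sites with an adjacent site in the same list; the ratio stays between 4.09 and 4.32.

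The values of single rich windows varied widely around these means, and counting error adds to that spread. The same-base share ran from 17.9% to 66.7% of a window's control sites, with quartiles of 37.2% and 48.4%. Its interval lay above the autosomal share of 42.3% in 12 rich windows (1.52% of all windows with a control site were called in this direction) and below it in 10 (1.66% of all). Rich windows have more control sites and so narrower intervals, which raises their number of calls. The highest shares were 8 of 12 control sites (66.7%, 34.9 to 90.1) on chromosome 6 from 4000000, 23 of 36 (63.9%, 46.2 to 79.2) on chromosome 12 from 25000000, and 17 of 27 (63.0%, 42.4 to 80.6) on chromosome 4 from 142000000. The lowest were 5 of 28 (17.9%, 6.06 to 36.9) on chromosome 7 from 20000000, 9 of 43 (20.9%, 10.04 to 36.0) on chromosome 4 from 128000000, and 8 of 37 (21.6%, 9.83 to 38.2) on chromosome 5 from 112000000. On chromosome 5 the window just before that one, from 111000000, had 23 of 37 (62.2%, 44.8 to 77.5). This pair was picked from many windows after the values were seen, so it does not show that neighbours in a run differ.

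The adjacent-base share of knockout sites in rich windows ran from 7.02% to 35.1%. Its interval lay above the autosomal 19.5% in 26 rich windows (4.66% of all windows with a knockout site) and below it in 23 (4.71% of all). Both sites of a pair are counted, which makes the intervals too narrow and raises the number of calls. The lowest shares were 12 of 171 knockout sites (7.02%) on chromosome 2 from 173000000, 12 of 133 (9.02%) on chromosome 13 from 55000000 and 12 of 132 (9.09%) on chromosome 4 from 150000000. The 3 highest were all on chromosome 6: 68 of 194 (35.1%, 28.4 to 42.2) from 5000000, 54 of 163 (33.1%, 26.0 to 40.9) from 4000000 and 80 of 254 (31.5%, 25.8 to 37.6) from 30000000.

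The knockout-to-control ratio of a rich window ran from 2.62 to 13.6, with quartiles of 3.83 and 4.82. Its interval lay above the autosomal ratio in 14 rich windows (1.33% of all windows tested) and below it in 4 (1.48% of all), counts that the choice by knockout sites tilts upwards. The lowest ratios were chromosome 5 from 102000000 with 123 knockout and 47 control sites (2.62), chromosome 19 from 10000000 with 43 control sites (2.88), chromosome 11 from 103000000 with 130 and 44 (2.95), chromosome 19 from 42000000 with 164 and 53 (3.09), and chromosome 3 from 9000000 with 158 and 51 (3.10). The 5 highest all lay on chromosome 6. They were the windows from 4000000 with 163 knockout and 12 control sites (13.6), from 30000000 with 254 and 24 (10.6), from 5000000 with 194 and 21 (9.24), from 6000000 with 157 and 19 (8.26) and from 28000000 with 187 and 24 (7.79). Outside that part of chromosome 6 the highest ratio of a rich window was 7.41, on chromosome 10 from 67000000 with 126 and 17.

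These windows belong to the first part of chromosome 6, 3000000 to 31999999, a stretch chosen because of these values. It has 29 windows, of which 7 are rich, and those 7 were the ones from 4000000, 5000000, 6000000, 28000000, 29000000, 30000000 and 31000000. The 2 not yet given, from 29000000 and 31000000, had 212 and 204 knockout sites with 32 control sites each, ratios of 6.63 and 6.38. All 7 were among the 14 rich windows with an interval above the autosomal ratio. Together they had 1371 knockout and 164 control sites, a ratio of 8.36 (7.11 to 9.89), and the 15 rich windows on the rest of chromosome 6 had 3.94 (3.61 to 4.31). The 22 other windows of the same part had 619 and 75 sites, a ratio of 8.25 (6.49 to 10.6). The part was chosen because of its ratios, so the high value in these windows too is a description only.

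In this part of chromosome 6 control sites were fewer per rich window, and knockout sites were slightly more numerous on average. The threshold holds knockout sites at 120 or more in any rich window. The lists give no read depth, so whether the lines differed in how much DNA of this part was present or read, copy number included, was not tested, and the values below carry that limit. The 7 rich windows averaged 23.4 control sites, below the 43.1 of rich windows elsewhere, and 196 knockout sites, against 183. Knockout counts of all rich windows had quartiles of 137 and 212.25, so 196 lies within their spread. Over all 29 windows of the part there were 68.6 knockout and 8.24 control sites per window. All autosomes had 57.2 and 13.5. At the autosomal ratio the control sites of the 7 rich windows would correspond to 51.0 to 136 knockout sites per window, and to fewer than 120 in 5 of the 7. The adjacent-base share of knockout sites was 28.6% (26.2 to 31.1) in the 7 rich windows and 27.5% (24.0 to 31.2) in the 22 others, against 21.3% (19.7 to 23.0) in rich windows on the rest of the chromosome and 19.4% (19.1 to 19.7) in all rich windows elsewhere. A knockout site stood on the base adjacent to 29.9% (23.0 to 37.5) of control sites in the 7 windows and to 18.97% (18.4 to 19.6) in rich windows elsewhere. The same-base share was 53.0% (45.1 to 60.9) there and 42.8% (42.0 to 43.5) elsewhere, but 30 of 75 control sites (28.9% to 52.0%) in the 22 other windows of the part. Adjacent control pairs made up 4.88% (2.13 to 9.39) of control sites in the 7 windows, an interval that includes the value elsewhere. The 8 windows that follow, from 32000000 to 39999999, had 422 knockout and 127 control sites, a ratio of 3.32 (2.72 to 4.08), and 18.96% (15.3 to 23.0) of knockout sites in adjacent pairs. The end of the first part was set from these ratios, so the lower value after it is a description only.

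In segments of 5 Mb with 20 or more control sites, of which there were 380 on the autosomes, the median ratio was 4.23 and 4 segments exceeded 7, all 4 in this part of chromosome 6. The highest elsewhere was 6.88, for the segment 15000000 to 19999999 of chromosome 10 (234 and 34 sites). Without the part, the knockout-to-control ratio of rich over other windows was 1.01 and the difference in same-base share 1.09 points. Both values lay within the intervals of all rich against all other windows.

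**Figure D5:**
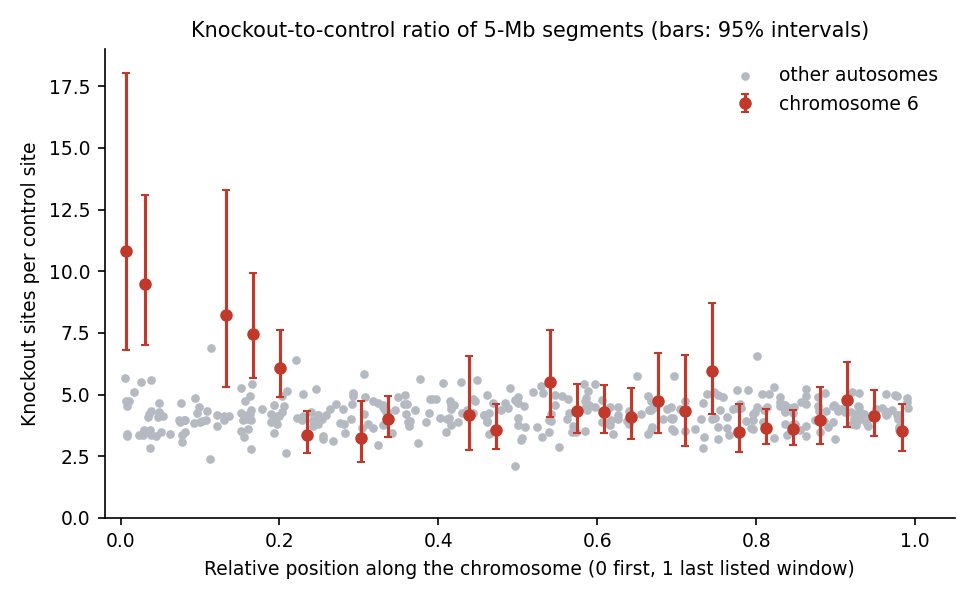
Knockout sites per control site (vertical axis) in 5-Mb segments with 20 or more control sites, by relative position along the chromosome (horizontal axis), with chromosome 6 in red with 95% intervals and the other autosomes in grey. The 4 segments with a ratio over 7 are at the start of chromosome 6.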

How the data were processed

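The authors deposited 1 table per genotype whose values are positions of single 5fC bases (chromosome, start and end, no level or other score). In each of the 139027 knockout and 32685 control rows start and end were the same base, and no position was repeated. The genotype of a list was taken from its name, and which libraries entered it is not stated. Per the submitters' processing notes, Bismark 0.8.3, HOMER and mm9 were used, with no role for each. The rule for listing a site, the pooling of replicates, whether positions count from 0 or 1, and the depth are all not given in the sources used here. Depth may differ along the genome and between genotypes, and the number of listed sites moves with it. Gene and promoter tables on GRCm38, another build, were not used, so no gene or sequence is given.

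Software was Python 3.11.15, matplotlib 3.10.9, scipy 1.17.1 and numpy 2.4.6. Windows run from the first to the last listed site of each of 19 autosomes. The scripts were tested on simulated lists. The rich windows, the measures and the rules for naming windows were chosen with earlier results of these data known. Windows were named as the 10 richest, the 3 longest runs, the extremes of each measure and the 5 on each side of the threshold. The first part of chromosome 6 was singled out later. Shares carry Clopper-Pearson intervals, ratios exact conditional ones, and differences and ratios of ratios normal or log-normal ones. Shifted, other-sized and differently chosen window sets were alternatives. X was left out by the rule, and unplaced sequence was not used.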

Additional observations from a re-analysis of the deposited data

Results flagged for a closer look

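Sites on X lie outside the windows compared. The X window richest in knockout sites, 166000000 to 166999999, held 78 of them and 1 control site, which is also a knockout base. The second, 11000000 to 11999999, held 39 and 13, of which 6 stood on a knockout base. No window of X reached the threshold of 120.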

How the results depend on the processing

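Of 69 alternatives run over 8 results in 9 settings, 47 left a value within its 95% interval (or the count within 1.5 times) and 22 moved it. A threshold of 150 gave 241 rich windows; 100 gave 511. The share of knockout sites in rich windows was 60.5% at 100, 37.0% at 150, 50.8% with windows shifted by 500 kb, 43.9% with adjacent sites counted as 1, 50.6% without chromosome ends and empty windows, 48.9% without chromosome 11, 48.8% with windows chosen by control sites, 46.6% without the densest 10 kb of each window and 49.98% without chromosome 6 before 32 Mb, the only alternative added after seeing the data. Control sites per rich over other window were 5.66 at 100, 5.16 at 150, 5.01 without chromosome ends and empty windows, 5.65 with windows chosen by control sites and 5.65 without the densest 10 kb. Choosing by control sites put the ratio of ratios at 0.907 (0.885 to 0.929) and the control adjacent-base difference at 0.0776 points, both on the other side of no difference. Without the densest 10 kb, the same-base difference was 2.49 points and the knockout adjacent-base difference 0.743. The interval of the ratio of ratios left out 1 at a threshold of 150 (1.03) and without the densest 10 kb (1.03). That of the knockout adjacent-base difference left out 0 at 150 (0.467) and without the densest 10 kb (0.306 to 1.18), but it counts both sites of a pair and is too narrow. The share of rich windows in runs was 75.5% at 100, 65.1% at 150 and 65.0% with windows chosen by control sites. A stricter or looser threshold changes these values by construction. Removing the densest 10 kb also does, because that bin held a median of 7.28% of knockout sites in rich and 21.4% in other windows. For the rest the cause was not tested. The same-base difference remained above 0 in all 9 settings, lowest at 0.382 points (-0.690 to 1.45) with windows chosen by control sites. Counting adjacent sites as 1 leaves no adjacent-base share, and choosing by control sites fixes the number of windows. No paired analysis was possible because each genotype has 1 list without replicates, so none could be left out either. Read depth is unknown, so how far it limits the counts was not measured.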

Other observations

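Some rich windows stood directly beside nearly empty ones. At 62 of the 387 borders the next window had fewer than 20 knockout sites. Such windows were less frequent beside rich windows than elsewhere. They made up 16.9% of windows next to a rich window and 54.8% of other windows farther off. Among all 2423 autosomal windows, 987 had fewer than 20. On chromosome 7, the rich window that starts at 31000000 counted 128 knockout and 33 control sites, and the next none of either. On chromosome 5, that at 64000000 counted 220 and 44, and the one before it 2 and 0. On chromosome 19, that at 53000000 counted 283 and 85, between a window with 2 knockout and 0 control sites and one with 27 and 8. Of the 112 rich windows that stood alone, 29 had fewer than 60 knockout sites in both neighbours.

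In the other direction, 50 windows with 30 or more control sites were not rich in knockout sites. Most control sites among the other windows, 42, were on chromosome 14 from 49000000, which missed the threshold with 115 knockout sites. The window on chromosome 7 from 77000000 had 41 control sites and 52 knockout sites, a ratio of 1.27 (0.826 to 1.96), and 5 of its 41 control sites (12.2%, 4.08 to 26.2) stood on a knockout base. These windows were chosen after their values were seen.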
